A study of Mus musculus with 12 samples.

Results

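Endothelial and angiogenic genes, here 37 in number, mark blood and lymphatic vessels or control their growth, and were studied among 56884 genes counted in mouse tumours. They were listed by name: 19 markers of endothelial cells, 6 receptors of vessel growth or Notch signalling, 6 of their ligands, the tip cell gene Esm1, 3 genes of leukocyte capture and 2 lymphatic genes. The 37 of 37 members found in the files passed the low-count filter, which left 17757 genes to be tested. RNA came from tumours labelled as TS/A, a mouse mammary carcinoma line, together with cancer-associated fibroblasts, which the labels shorten to CAF. The 12 libraries formed 4 groups of 3, with the genotype given as WT in each. The group called control had the treatment "None", RT had received radiotherapy, FAP41BBL had received muFAP-4-1BBL, and RT_FAP41BBL had received both. By its name muFAP-4-1BBL joins the ligand of the T cell receptor 4-1BB to a part that binds fibroblast activation protein. The labels give no dose, time or animal age, do not say whether the fibroblasts were 1 clone or a pool, and do not say which libraries came from different animals. The p-values therefore rest on the spread among the libraries of a group, part or all of which may be technical.

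New vessels grow out of existing ones when VEGF-A binds its receptor VEGFR2 on endothelial cells, and a leading tip cell guides each sprout while Notch signals from Dll4 hold back its neighbours. Angiopoietin-1 from mural cells and other stroma keeps vessels quiet through the receptor Tie2, and angiopoietin-2, released by the endothelium itself, can oppose it. In inflamed vessels E-selectin and P-selectin catch leukocytes from the blood, so the endothelium also decides which immune cells enter a tumour.

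Levels are in CPM, the counts of a gene relative to the scaled total of its library, and stand as mean ± SD over 3 libraries. Changes are log2 fold changes ± SE. A gene rose or fell where its adjusted p-value from edgeR's quasi-likelihood test over all 17757 genes was under 0.05. In whole tumours, fewer cells of a type and less RNA per cell cannot be told apart.

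Across 6 comparisons 4 of the 37 genes passed, in 5 tests. Of these tests 2 were with radiotherapy alone, where 9.62% of all genes passed, and 3 with both treatments, where 7.91% did. Apln, the ligand apelin, fell with radiotherapy alone and with both treatments. Angpt1, the ligand angiopoietin-1, rose with radiotherapy alone. Kdr, which encodes VEGFR2, and Eng, which encodes the TGF-beta coreceptor endoglin, rose with both treatments. With muFAP-4-1BBL alone no member passed.

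The sequences just upstream of Eng, Kdr and Apln are shown because these genes carry the calls, with a RefSeq window at hand for 23 of the 37 members and for 3 of the 4 that passed. Angpt1 is given by name only. Each sequence is the 250 bases before the gene's start in GRCm38.p6, a build other than the GRCm39 of the count files, and reads 5′ to 3′ on the gene's strand. Capitals mark the letters GGAAG, a form of the core GGAA bound by ETS factors such as Erg and Fli1, or the reverse complement CTTCC.
Eng, chr2:32646345-32646594, plus strand: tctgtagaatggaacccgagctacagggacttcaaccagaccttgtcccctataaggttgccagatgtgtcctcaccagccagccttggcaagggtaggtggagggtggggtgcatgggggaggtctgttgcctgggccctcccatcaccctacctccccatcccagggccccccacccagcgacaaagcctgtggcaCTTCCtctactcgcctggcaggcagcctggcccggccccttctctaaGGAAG
Kdr, chr5:75978456-75978705, minus strand: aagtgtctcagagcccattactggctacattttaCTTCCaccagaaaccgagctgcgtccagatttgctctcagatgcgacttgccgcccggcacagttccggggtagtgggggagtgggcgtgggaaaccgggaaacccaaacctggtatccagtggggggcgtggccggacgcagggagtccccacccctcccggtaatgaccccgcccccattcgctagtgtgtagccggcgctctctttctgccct
Apln, chrX:48034854-48035103, minus strand: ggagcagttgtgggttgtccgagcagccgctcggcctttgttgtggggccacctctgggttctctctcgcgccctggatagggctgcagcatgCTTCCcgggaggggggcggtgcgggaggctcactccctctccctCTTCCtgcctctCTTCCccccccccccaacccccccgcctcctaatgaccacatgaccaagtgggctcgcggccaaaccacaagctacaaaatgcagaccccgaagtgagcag
The window of Apln held 3 such matches, that of Eng 2 and that of Kdr 1. GGAA followed by another letter was not searched for, and the printed windows of Eng and Kdr hold it on either strand. The order of these counts therefore holds for GGAAG only. These 5 letters are common: 64.1% of all 32851 windows of this length held them on either strand, against 23 of the 29 windows of members, some of which have more than 1. None of the 3 printed windows held ACGTG, a form of the core of the hypoxia response element. It stood in 16.6% of all windows and in 1 of the 29 windows of members. The form GCGTG was not searched for, and the printed window of Kdr holds it. None of the 3 held ACAAT, a core bound by SOX factors, which stood in 27.7% of all windows and in 7 of the 29. A match describes letters only.

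Library totals lay between 34076477 and 42067481 counts, and the 37 members took 0.0806% to 0.132% of them. In 34 of the 37 genes every library had at least 1 CPM. The exceptions were Sele, Prox1 and Mmrn1. Markers that define endothelium, such as Cdh5 and Pecam1, were present in all 12 libraries. Libraries stood apart within groups: RT replicate 3 was the highest of its group in 32 of the 37 genes, against 36.9% of all genes tested, and FAP41BBL replicate 3 in 33 of the 37, against 31.3%. Markers of other tissues also differed between libraries. The summed level of 12 skeletal muscle genes was 51.6 to 564 CPM in control, 5337 to 11815 with RT, 67.3 to 1824 with FAP41BBL and 436 to 855 with RT_FAP41BBL. RT replicate 3 and FAP41BBL replicate 3 were the highest of their groups there as well, and in the summed level of 8 fibroblast genes and 8 adipocyte genes. The part of these tissues in the results below was not tested unless a value is given.

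**Figure D1:**
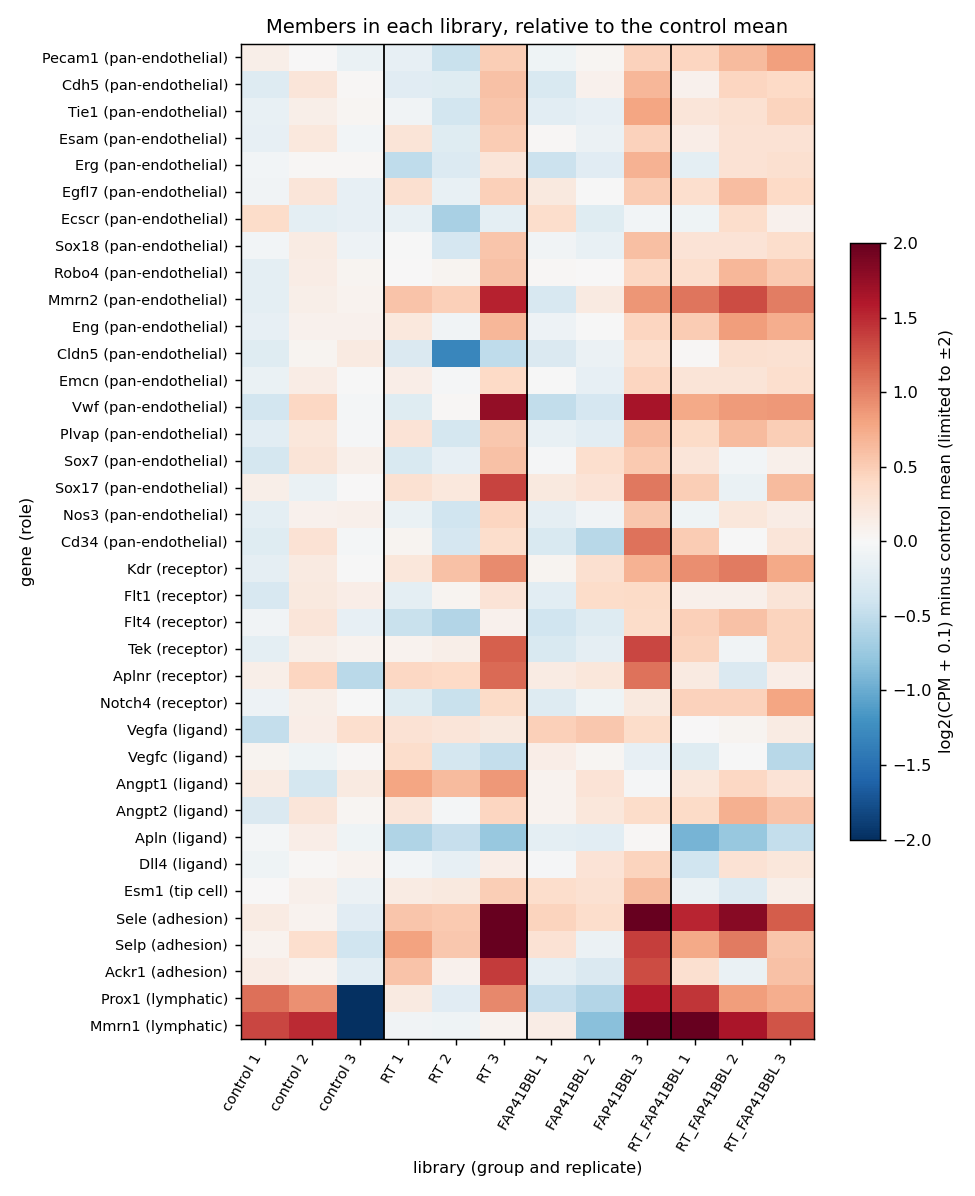
Heat map of the 37 genes (rows, grouped by role) in the 12 libraries (columns, by group and replicate). Colour gives the log2 CPM of a library minus the mean of the 3 control libraries, with 0.1 CPM added before the logarithm and the scale limited to ±2. RT replicate 3 and FAP41BBL replicate 3 are the highest of their groups in 32 and 33 of the genes.

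Levels between genes were compared per kilobase of exon. Plvap, a protein of the diaphragms of fenestrated capillaries, was the highest member at 36.5 CPM per kilobase over the 12 libraries. Vegfa followed at 31.8, Eng at 21.1, Ecscr at 19.1, Pecam1 at 18.0, Cdh5 at 13.8, Vegfc at 12 and Apln at 8.67. Kdr, at rank 13, stood at 6.38. Angpt2 stood at 4.24 CPM per kilobase and Angpt1, among the lowest, at 0.732.

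Among the markers of the endothelial surface, Pecam1 encodes CD31, an adhesion molecule that platelets and macrophages carry too (ENSMUSG00000020717.20, GRCm39 chromosome 11, 106545043 to 106641454). It read 104, 96.4 and 87.8 CPM in control, 85.4, 70.4 and 135 with RT, 90.4, 98.4 and 133 with FAP41BBL, and 129, 148 and 170 with RT_FAP41BBL. The RT_FAP41BBL libraries lay above the control libraries, while RT and FAP41BBL overlapped with control. In RT replicates 1 and 2 lay below the control libraries and replicate 3 above them, and in FAP41BBL replicates 1 and 2 lay within the control range. Against control the log2 change was 0.01 ± 0.22 with RT (95% interval -0.46 to 0.48, adjusted p = 0.985) and 0.16 ± 0.22 with FAP41BBL (-0.32 to 0.63, adjusted p = 0.999). In RT_FAP41BBL it was 0.63 ± 0.22 (0.16 to 1.11), which did not pass (adjusted p = 0.101).

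Cdh5 encodes VE-cadherin, the cadherin of endothelial junctions (ENSMUSG00000031871.10, chromosome 8, 104828257 to 104871143). Its levels were 43.2, 60.8 and 52.5 CPM in control, 44.2, 43.8 and 77.7 with RT, 42.0, 54.6 and 82.3 with FAP41BBL, and 55.0, 69.7 and 68.1 with RT_FAP41BBL. The 4 groups overlapped. Its log2 change against control was 0.08 (95% interval -0.51 to 0.68, adjusted p = 0.891) with RT, 0.19 (-0.40 to 0.79, adjusted p = 0.999) with FAP41BBL and 0.30 (-0.29 to 0.89, adjusted p = 0.556) with RT_FAP41BBL. These intervals leave room for a change of 1.5-fold or more with RT and with FAP41BBL as well, so Cdh5 is not shown to be unchanged.

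Eng binds ligands of the TGF-beta family beside their receptors and is strongest on dividing endothelium, though macrophages and some stromal cells carry it (ENSMUSG00000026814.17, chromosome 2, 32536607 to 32572681). Its levels were 61.8, 73.1 and 73.2 CPM in control, 79.8, 65.9 and 109 with RT, 64.5, 69.0 and 93.6 with FAP41BBL, and 97.8, 124 and 115 with RT_FAP41BBL. The RT_FAP41BBL libraries lay above all control libraries and all FAP41BBL libraries, and RT replicate 3 lay among them. Eng rose 1.62-fold in RT_FAP41BBL over control (log2 0.69 ± 0.19, 95% interval 0.29 to 1.10, adjusted p = 0.040). Leaving out any 1 of the 6 compared libraries kept a log2 change of 0.62 to 0.79 but ended the call, with adjusted p-values of 0.0511 to 0.149, as did the muscle score as a covariate (adjusted p = 0.117). In RT and FAP41BBL its log2 changes were 0.29 and 0.13.

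The other markers gave no call. Mmrn2, multimerin-2, a matrix protein laid down by endothelium, read 12.8, 15.8 and 15.4 CPM in control, 21.7, 20.3 and 42.8 with RT, 11.7, 16.5 and 26.9 with FAP41BBL, and 30.8, 36.2 and 29.9 with RT_FAP41BBL. Both irradiated groups lay above control without overlap, with log2 changes of 0.95 ± 0.32 (adjusted p = 0.0961) and 1.14 ± 0.32 (adjusted p = 0.0569). Cldn5, claudin-5 of the tight junctions, went the other way in RT, from 8.42 ± 1.24 to 5.34 ± 1.81 CPM, again without overlap (log2 -0.66 ± 0.25, adjusted p = 0.122). In RT_FAP41BBL it stood at 9.76 ± 1.08 CPM, above RT by 0.87 ± 0.25 (adjusted p = 0.0595). Vwf, the von Willebrand factor of endothelium and platelets, was uneven within RT and FAP41BBL, where replicate 3 lay far above the others: 12.1, 14.7 and 48.8 CPM with RT and 10.2, 11.4 and 45.2 with FAP41BBL, against 11.1, 19.2 and 14 in control and 24.5, 26.2 and 26.5 with RT_FAP41BBL. Cd34, carried by endothelium, fibroblasts and blood progenitors, stood at 56.9 ± 10.8, 58.2 ± 13.4, 67.6 ± 44.6 and 67.7 ± 12.2 CPM in the 4 groups. Plvap stood at 62.5 ± 9.76, 71.3 ± 21.2, 68.3 ± 23.5 and 88.1 ± 8.01. The transcription factor genes Erg and Sox18 stood at 6.16 ± 0.186 and 10.2 ± 1.02 CPM in control and at 6.87 ± 1.32 and 12.5 ± 0.45 in RT_FAP41BBL. Nos3, the nitric oxide synthase of endothelium, lay between 9.69 and 10.6 CPM in all 4 group means.

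**Figure D2:**
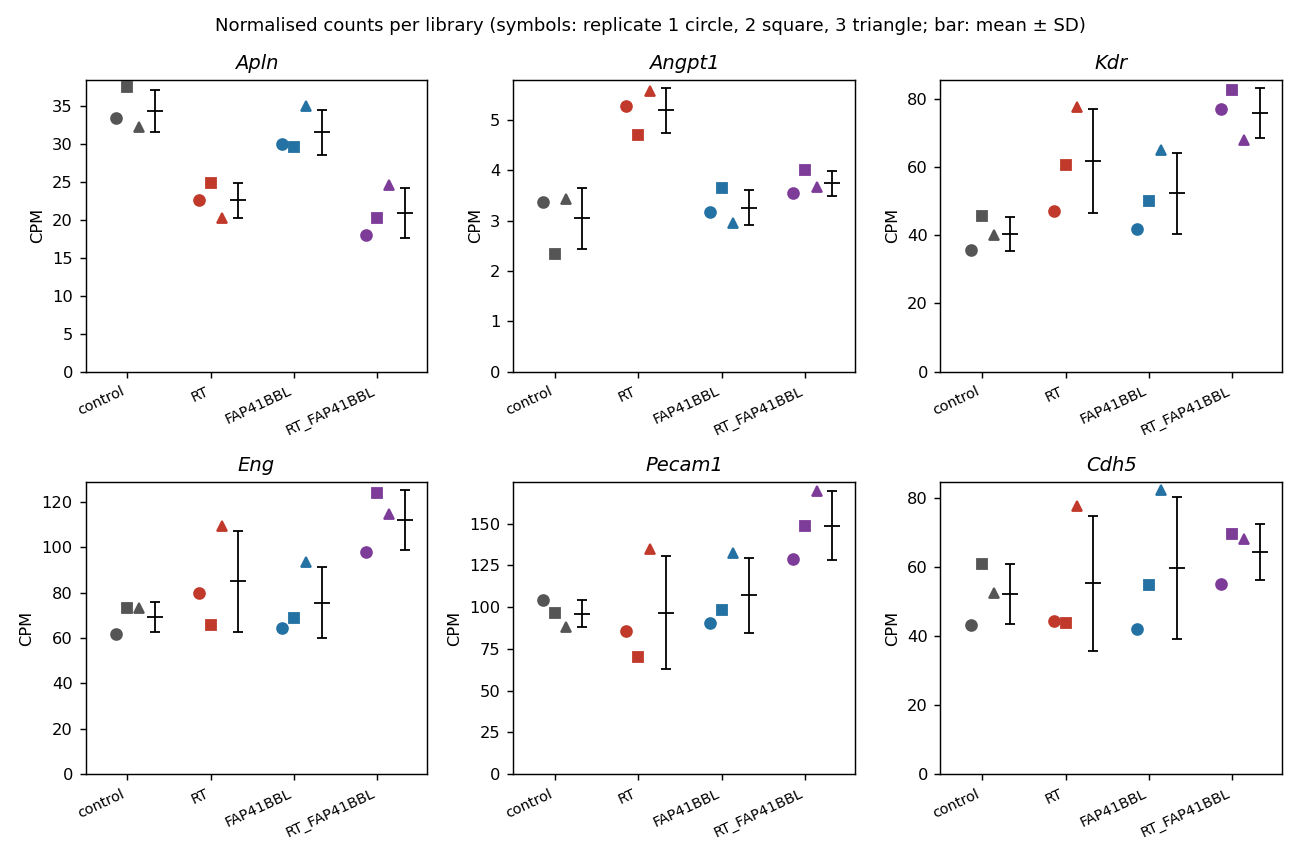
Levels of Apln, Angpt1, Kdr, Eng, Pecam1 and Cdh5 in each library (points, CPM, 1 panel per gene), by group, with bars for mean ± SD. Apln lies lower in the 2 irradiated groups (18.0 to 24.8 CPM) than in the others (29.6 to 37.4), and Angpt1 is highest in RT.

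Of the receptors, Kdr is the main signalling receptor for VEGF-A (ENSMUSG00000062960.11, chromosome 5, 76093487 to 76139118). Kdr read 35.6, 45.6 and 40.2 CPM in control, 47.1, 60.6 and 77.8 with RT, 41.8, 50.0 and 65.0 with FAP41BBL, and 77.0, 82.7 and 68.1 with RT_FAP41BBL. Both irradiated groups lay above control without overlap, and FAP41BBL overlapped with control. Kdr rose 1.88-fold in RT_FAP41BBL (log2 0.91 ± 0.19, 95% interval 0.49 to 1.32, adjusted p = 0.0145). The call was lost without control replicate 1 (log2 0.82, adjusted p = 0.0582), control replicate 3 (0.90, 0.0512) or RT_FAP41BBL replicate 2 (0.84, 0.0627). In RT the log2 change was 0.61 ± 0.19 (adjusted p = 0.0651), and in FAP41BBL 0.37 (95% interval -0.04 to 0.78, adjusted p = 0.999). The difference between the treatments' joint change and the sum of their single changes, the interaction, was -0.07 (95% interval -0.65 to 0.51, adjusted p = 0.942).

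Flt1, VEGFR1, a decoy that binds VEGF-A with little signal, stood at 46.5 ± 8.69 CPM in control, 47.9 ± 7.9 with RT, 52.9 ± 11.4 with FAP41BBL and 51.2 ± 3.01 with RT_FAP41BBL. The ratio of Kdr to Flt1 counts was 0.880 ± 0.0873 in control and 0.994 ± 0.131 with FAP41BBL, against 1.28 ± 0.108 with RT and 1.49 ± 0.221 with RT_FAP41BBL. Both receptors come from the same library, so the ratio does not move with library scaling, but it was not tested. Flt4, VEGFR3, the receptor for VEGF-C, stood at 8.41 ± 1.28, 6.83 ± 1.77, 8.05 ± 2.43 and 11.9 ± 0.621 CPM. The RT_FAP41BBL libraries lay above those of every other group, and the nearest comparison to the threshold was against RT (log2 0.80 ± 0.22, adjusted p = 0.0546). Notch4, the Notch receptor of endothelium, showed the same order of groups: 25.2 ± 1.89, 24.2 ± 7.72, 24.4 ± 3.92 and 37.6 ± 5.11 CPM, with a log2 change of 0.63 against RT (adjusted p = 0.0752). Tek, the receptor Tie2, and Aplnr, the apelin receptor, passed in none of the 6 comparisons. Aplnr stood at 12.1 ± 3.87 CPM in control, 18.9 ± 5.93 with RT, 17.2 ± 6.69 with FAP41BBL and 11.9 ± 2.02 with RT_FAP41BBL.

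Of the ligands, Apln encodes apelin, which sprouting endothelium secretes (ENSMUSG00000037010.8, chromosome X, 47114023 to 47123730). It read 33.3, 37.4 and 32.2 CPM in control, 22.6, 24.8 and 20.1 with RT, 30.0, 29.6 and 34.9 with FAP41BBL, and 18.0, 20.1 and 24.5 with RT_FAP41BBL. The 6 libraries of irradiated tumours lay below the 6 of tumours that were not irradiated. Apln fell to 0.657 of control in RT (log2 -0.61 ± 0.13, 95% interval -0.89 to -0.33, adjusted p = 0.0121). It fell to 0.609 of control in RT_FAP41BBL (log2 -0.72 ± 0.13, 95% interval -1.0 to -0.44, adjusted p = 0.00740). Both comparisons use the same control libraries. The comparison of RT_FAP41BBL against FAP41BBL, which does not use them, gave log2 -0.59 ± 0.13 without overlap, just missing the threshold (adjusted p = 0.0513). RT_FAP41BBL and RT differed by -0.11 (95% interval -0.39 to 0.17), FAP41BBL and control by -0.12 (-0.40 to 0.15), and the interaction was 0.01 ± 0.18 (-0.38 to 0.41, adjusted p = 0.986). Both calls held in each fit that left out 1 compared library, with adjusted p-values of 0.0164 to 0.0483 in RT and 0.00852 to 0.0403 in RT_FAP41BBL. The summed muscle markers were 436 to 855 CPM in RT_FAP41BBL and 5337 to 11815 in RT. With the muscle score as a covariate the call in RT was lost (log2 -0.73, adjusted p = 0.245) and that in RT_FAP41BBL held. That fit called 3 of 17757 genes in RT and 822 in RT_FAP41BBL. Each RT library stood above every other library in the score, so the lost call says nothing particular of Apln.

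Angpt1 encodes angiopoietin-1 (ENSMUSG00000022309.10, chromosome 15, 42288119 to 42540373). Its levels were low: 3.37, 2.34 and 3.43 CPM in control, 5.29, 4.71 and 5.58 with RT, 3.17, 3.64 and 2.96 with FAP41BBL, and 3.54, 4.02 and 3.67 with RT_FAP41BBL. The 3 RT libraries lay above the other 9. Angpt1 rose 1.70-fold in RT over control (log2 0.77 ± 0.19, 95% interval 0.36 to 1.18, adjusted p = 0.0243). The call was lost without control replicate 2, which is the lowest control (log2 0.59, adjusted p = 0.122), and without RT replicate 3 (0.69, 0.0699). In RT_FAP41BBL the log2 change was 0.30 (adjusted p = 0.381), and RT_FAP41BBL lay below RT by 0.47 ± 0.19 on the log2 scale without overlap (adjusted p = 0.155). Of 9 mural cell markers, whose cells make angiopoietin-1, 7 lay above 0 in RT over control and 1 passed. That was Abcc9, at 8.45 CPM in control and 33.3 ± 18.4 in RT. The summed level of the 9 was 545 ± 141 CPM in control and 612 ± 114 in RT, and the groups overlapped. Their mean log2 CPM did not overlap, at 4.04 to 4.67 in control and 4.79 to 5.54 in RT. The median log2 change of the 9 was 0.71. RT was also the group with the muscle markers, 8 of 12 of which rose. The part of mural cells and muscle in the levels of Abcc9 and Angpt1 was not tested, apart from 1 fit for Angpt1. With the muscle score as a covariate its log2 change was 1.07 (adjusted p = 0.248). Only 3 of 17757 genes passed in RT in that fit, so the lost call says nothing particular of Angpt1. The call was also lost without the low-count filter (adjusted p = 0.0561) and with only the 2 groups fitted (0.0971).

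Angpt2, the antagonist made by endothelium, read 10.6, 15.4 and 13.3 CPM in control and 17, 21.2 and 19.2 with RT_FAP41BBL (log2 0.55 ± 0.16, adjusted p = 0.0579), with 15.1 ± 2.47 with RT and 15.2 ± 1.52 with FAP41BBL. The count ratio of Angpt1 to Angpt2 was 0.242 ± 0.0831 in control, 0.347 ± 0.0277 with RT, 0.216 ± 0.0339 with FAP41BBL and 0.196 ± 0.0105 with RT_FAP41BBL. The RT libraries were highest in this ratio.

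Vegfa encodes VEGF-A, made by tumour and stromal cells and driven by low oxygen (ENSMUSG00000023951.19, chromosome 17, 46327919 to 46343295). It read 84.7, 129 and 148 CPM in control, 143, 139 and 134 with RT, 164, 171 and 151 with FAP41BBL, and 118, 122 and 132 with RT_FAP41BBL. The FAP41BBL libraries lay above control without overlap, yet control replicate 1 was far below its partners and no comparison passed. The log2 change was 0.20 (95% interval -0.14 to 0.54, adjusted p = 0.477) with RT, 0.43 (0.09 to 0.77, adjusted p = 0.905) with FAP41BBL and 0.04 (-0.30 to 0.38, adjusted p = 0.911) with RT_FAP41BBL. Vegfc, the ligand of VEGFR3, lay between 26.2 and 31.3 CPM in the group means, and Dll4, the Notch ligand of tip cells, between 8.66 and 10.4.

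Esm1, endocan, a proteoglycan of tip cells, read 6.37, 6.82 and 5.82 CPM in control, 7.08, 7.28 and 8.9 with RT, 8.1, 7.84 and 9.86 with FAP41BBL, and 5.78, 5.2 and 6.84 with RT_FAP41BBL. Each single treatment lay above control without overlap, and the combination lay below both single treatments. Esm1 had the smallest adjusted p of the members for the interaction (log2 -0.82 ± 0.23, adjusted p = 0.139), which did not pass. With DESeq2 in place of edgeR, Esm1 was the 1 member called for the interaction, with 629 of 17029 genes called.

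The genes that catch leukocytes were low in control. Sele, E-selectin, read 1.18, 1.11 and 0.879 CPM in control, 1.59, 1.55 and 4.54 with RT, 1.46, 1.36 and 5.13 with FAP41BBL, and 3.21, 3.94 and 2.55 with RT_FAP41BBL. All 3 treated groups lay above control without overlap, but the log2 changes of 1.28, 1.32 and 1.61 did not pass (adjusted p = 0.174, 0.939 and 0.0969). Selp, P-selectin, stood at 5.79 ± 1.46 CPM in control, 14.3 ± 9.01 with RT, 9.05 ± 5.2 with FAP41BBL and 9.92 ± 1.71 with RT_FAP41BBL. Ackr1, the chemokine-binding receptor of venules, stood at 2.07 ± 0.283, 3.63 ± 1.77, 2.9 ± 2.01 and 2.54 ± 0.633 CPM.

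The lymphatic genes were near the limit of detection in 1 library. Prox1, the transcription factor of lymphatic endothelium, had 44, 42 and 2 counts in control, and Mmrn1, multimerin-1, had 78, 95 and 1. Control replicate 3 was also the lowest control library in the muscle, adipocyte and keratinocyte markers. In the other groups Mmrn1 had 29, 31 and 34 counts with RT, 36, 14 and 127 with FAP41BBL, and 159, 101 and 77 with RT_FAP41BBL, with no call in any comparison.

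Radiotherapy alone was compared with control for its effect on the vessel genes as a group. Of the 37 members 1 rose and 1 fell, against 9.62% of all genes called in this comparison (6.57% higher and 3.05% lower). In all 7 members had an unadjusted p under 0.05, against 24.2% of all genes. Of the 37, 27 lay above 0 with a median log2 change of 0.18, against 49.8% of all genes above 0 and a median within 0.01 of 0. The groups did not overlap for 9 members (7 higher, 2 lower), against 26% of all genes tested (14.9% higher and 11.1% lower). Without RT replicate 3 the members' median was -0.04 with 18 above 0. With the muscle score as a covariate it was -0.44 with 8 above 0, so the sign of the median depends on both. RT replicate 3 was the highest of its group in 32 members, so leaving it out lowers RT by construction. The muscle score and radiotherapy cannot be told apart in this design, since each RT library stood above every other library in it.

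muFAP-4-1BBL alone was compared with control next. None of the 37 members passed with edgeR, DESeq2 or limma-voom, against 0.00563% of all genes with edgeR, and 3 members had an unadjusted p under 0.05, against 5.17% of all genes. The median change was 0.19 with 33 of 37 above 0, against 52.2% of all genes. The 8 adipocyte markers lay above control without overlap in this comparison (median log2 2.73, summed 190 to 320 CPM against 42.5 to 110), though none passed. Their part in the members' levels was not tested. For 4 members (Sox17, Vegfa, Esm1 and Sele) the groups did not overlap, higher in each, against 10.8% of all genes (5.7% higher and 5.07% lower). Without both RT replicate 3 and FAP41BBL replicate 3 the median was -0.06 with 16 above 0. These 2 libraries were chosen because they were high in these genes, so that leaving them out lowers their groups by construction.

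For both treatments together, 2 members rose and 1 fell against control, with 7.91% of all genes called (5.59% higher and 2.31% lower). An unadjusted p under 0.05 was found for 11 members, against 23.6% of all genes. The median change was 0.30 and 33 of 37 lay above 0, against 51.4% of all genes. In 17 members the RT_FAP41BBL libraries lay above control without overlap and in 1, Apln, below, against 38.5% of all genes in either direction (20% higher and 18.5% lower). The summed level of the 10 core endothelial markers was 283 ± 14.9 CPM in control, 302 ± 92.2 with RT, 317 ± 73.4 with FAP41BBL and 391 ± 39 with RT_FAP41BBL. All 10 lay above 0 with a median log2 change of 0.32 against control, and 0 of them passed. Pecam1 alone held 96.1 ± 8.17 CPM of the sum in control and 149 ± 20.5 in RT_FAP41BBL. Macrophage markers stood high in the same libraries: 4 of 7 rose, among them Adgre1, which encodes F4/80, and Cd68, and the sum of the 7 was 2815 to 3653 CPM in control and 4104 to 5297 in RT_FAP41BBL. Their part in the levels of Eng and Pecam1 was not tested. Of 8 adipocyte markers 1 rose, and all 8 lay above 0 with a median log2 change of 2.85. Their sum was 107 to 372 CPM against 42.5 to 110 in control, which overlapped. The part of adipocytes in the members' levels was not tested.

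**Figure D3:**
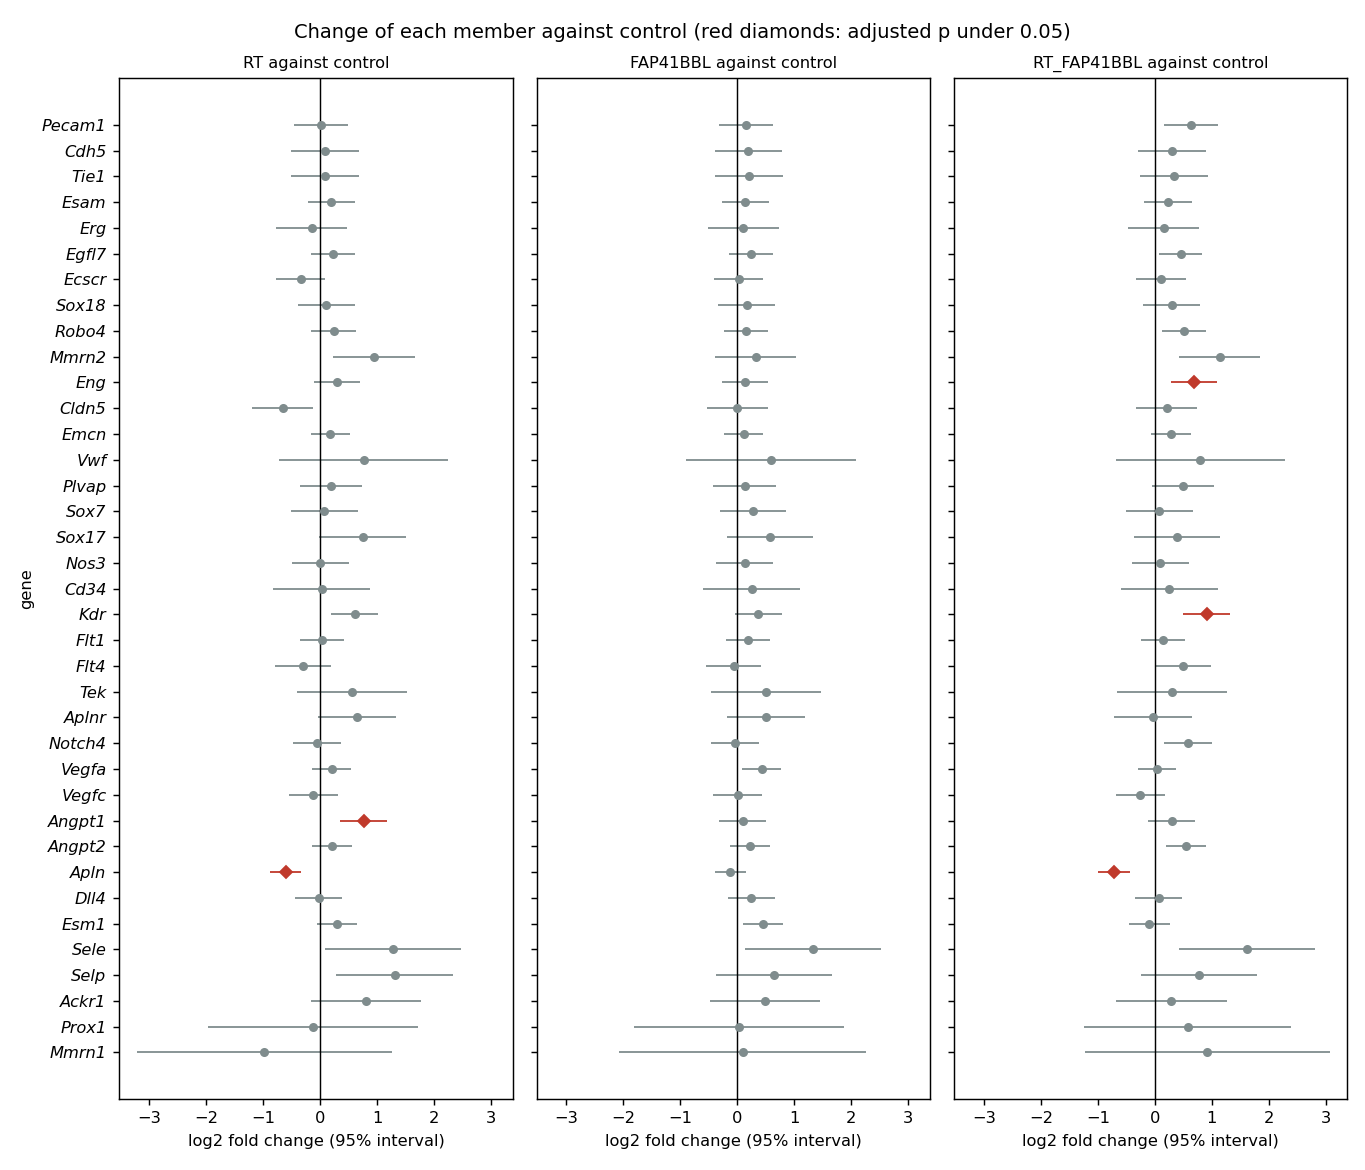
Log2 change of each of the 37 genes against control (horizontal axis) in RT, FAP41BBL and RT_FAP41BBL, with 95% intervals from the edgeR fit as bars. Red diamonds passed the test: Angpt1 and Apln in RT, and Kdr, Eng and Apln in RT_FAP41BBL.

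RT_FAP41BBL was also set against each single treatment. Against RT no member passed with edgeR, with 5.76% of all genes called (3.36% higher and 2.4% lower). DESeq2 called 4 members and 2025 of 17635 genes, and limma-voom 2 members and 1366 of 17757 genes. In this comparison 7 members had an unadjusted p under 0.05, against 23% of all genes, and 27 lay above 0, against 49.7%. The groups did not overlap for 5 members that were higher and 4 that were lower, against 27.9% of all genes (14.5% and 13.4%). Without RT replicate 3 edgeR called 4, Pecam1, Eng, Flt4 and Notch4, with 2305 of 18106 genes called. That library was the highest of its group in 32 of the 37 members, so leaving it out lowers RT by construction. Without RT replicate 1 or RT replicate 2 the count was 0. Against FAP41BBL no member passed with edgeR, with 0.946% of all genes called (0.822% higher and 0.124% lower). DESeq2 called 2 members and 754 of 16418 genes, and limma-voom 1 member and 236 of 17757 genes. Here 9 members had an unadjusted p under 0.05, against 13.5% of all genes, and 25 lay above 0, against 50.1%. The groups did not overlap for 6 members that were higher and 3 that were lower, against 23.2% of all genes (12.3% and 10.9%). For the interaction no member passed, with 0.152% of all genes called (0.0282% higher and 0.124% lower). DESeq2 called 1 member and 629 of 17029 genes, and limma-voom 0 members and 28 of 17757 genes. An unadjusted p under 0.05 was found for 6 members, against 14.1% of all genes, and 16 lay above 0, against 50.1%.

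**Figure D4:**
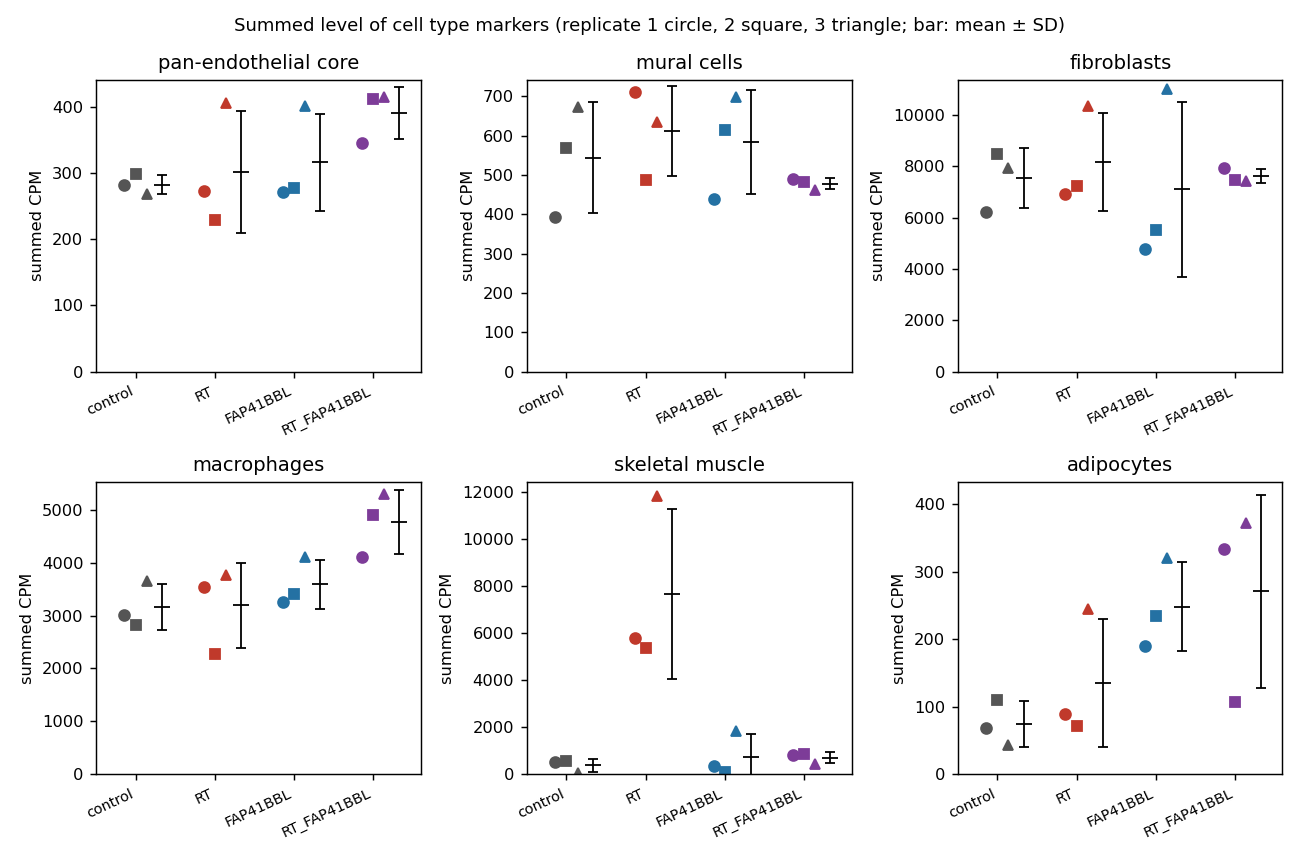
Summed CPM of marker lists in each library (points, by group, with bars for mean ± SD): the 10 core endothelial genes, mural cells, fibroblasts, macrophages, skeletal muscle and adipocytes, 1 panel each. RT holds 5337 to 11815 CPM of muscle markers, and RT_FAP41BBL the highest macrophage sums, 4104 to 5297 CPM.

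To see which members moved beside the endothelial markers and which apart from them, each was set against the mean log2 CPM of the 10 core markers of the same library, as a description without a test. Apln stood 0.75 above this mean in control, 0.03 above in RT and 0.39 below in RT_FAP41BBL, so that its difference from control was -0.71 and -1.14. Angpt1 was higher in RT by 0.67 on this scale. Kdr and Eng were higher in RT_FAP41BBL by 0.49 and 0.28, smaller than their changes in CPM. With a core of 8 genes, without Sox18 and Robo4, the 5 differences moved by no more than 0.01. Both cores kept Mmrn2, which stood at -0.53 against the other core genes in control, 0.31 in RT and 0.27 in RT_FAP41BBL. The 8-gene core therefore cannot show the part of Mmrn2 in this reference. Mmrn2 counts were 0.283 ± 0.0198 of those of Cdh5 in control and 0.303 ± 0.024 with FAP41BBL, against 0.502 ± 0.0444 with RT and 0.506 ± 0.0615 with RT_FAP41BBL. The Mmrn2 ratio did not overlap between tumours with and without radiotherapy.

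Other genes of vessels, listed by pathway and not among the 37, numbered 77, of which 76 were tested. With radiotherapy alone 4 of the 76 rose and none fell, no larger a share than the 9.62% of all genes called (6.57% higher). Plaur, the urokinase receptor, went from 58.9 ± 4.79 to 99.9 ± 7.76 CPM (log2 0.76 ± 0.12, adjusted p = 0.00363). The others were Procr, the endothelial protein C receptor, F3, tissue factor, and Gja5, the connexin of arterial endothelium, with log2 changes of 0.40, 0.48 and 1.37. With both treatments 5 of the 76 rose and 1 fell against control, a share near the 7.91% of all genes called, so these counts say nothing particular of vessel genes. Icam1, an adhesion molecule of activated endothelium and of leukocytes, went from 29.7 ± 1.26 to 65.7 ± 11.5 CPM (log2 1.15, adjusted p = 0.00566). Selplg, the leukocyte ligand of P-selectin, went from 47.2 ± 5.01 to 104 ± 11.8 CPM (log2 1.14, adjusted p = 0.00481). Plaur (0.48), the Notch glycosyltransferase gene Lfng (0.53) and the ETS factor gene Fli1 (0.56) rose too, and Cd99l2 fell by 0.42 on the log2 scale. Blood cells also express Selplg, Icam1 and Fli1, and 4 of the 7 macrophage markers rose in the same comparison. Their part in these levels was not tested. Against RT, 3 of the 76 rose, Lyl1 (1.15), Selplg (0.86) and Lfng (0.54), with 5.76% of all genes called. Against FAP41BBL 1 rose, Selplg (0.88), with 0.946% of all genes called. With muFAP-4-1BBL alone, and for the interaction, none of the 76 passed with edgeR, against 0.00563% and 0.152% of all genes. In these 7 and 13 had an unadjusted p under 0.05, against 5.17% and 14.1% of all genes. The 20 other endothelial genes, such as Cd93 and Clec14a, had median log2 changes of 0.10 with RT, 0.21 with FAP41BBL and 0.31 with RT_FAP41BBL against control, beside 0.18, 0.19 and 0.30 for the 37 members.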

How the data were processed

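The data were 12 strand-specific mRNA libraries from tumours. The authors deposited raw counts per gene, made with featureCounts 1.6.0 on read pairs with the reverse strand setting and GENCODE M33, per the file headers. The submitters' processing notes name GRCm39 and STAR 2.7.9a. Symbols were taken from GENCODE M21 by gene identifier, for 51948 of 56884 genes (91.3%). Members and lists were chosen with earlier results of these data known.

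The main analysis used edgeR 4.0.16 under R 4.3.3. The filterByExpr step kept 17757 genes, libraries were scaled by TMM, and all 12 libraries entered 1 model of the 4 groups (8 residual degrees of freedom, common biological coefficient of variation 0.205). Each contrast used the quasi-likelihood test in its robust form, and p-values were adjusted by Benjamini-Hochberg over all genes tested, at 0.05. The interaction is RT_FAP41BBL minus FAP41BBL, less RT minus control. Log2 CPM used a prior count of 2. The standard error of a member's log2 change had a median of 0.23 in each comparison between groups and 0.33 for the interaction. The steps were tested on simulated counts.

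All members could be named. Values in every library and full statistics went to members past the threshold and to Pecam1, Cdh5, Kdr and Vegfa, and, chosen after their values were seen, library values to Mmrn2, Vwf, Esm1, Sele, Angpt2, Prox1 and Mmrn1. Genes of other vessel lists were named where they passed. Alternatives were DESeq2 1.42.0, limma-voom (limma 3.58.1), RLE factors, library totals, leaving out the low-count filter, a block for the replicate number, a muscle score as a covariate, fits of the 2 compared groups, and each library left out. Chosen after seeing the data was a fit without RT replicate 3 and FAP41BBL replicate 3.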

Additional observations from a re-analysis of the deposited data

How the results depend on the processing

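Of 175 recomputed results 127 kept their direction and side of the threshold or stayed within 1.5 times the count. None reversed, but counts of members called have no direction and could not. The members' median log2 change, not among the 175, did change sign. In RT it went from 0.18 to -0.44 with the muscle score as a covariate and to -0.04 without RT replicate 3. In FAP41BBL it went from 0.19 to -0.06 without FAP41BBL replicate 3. For RT against control 2 members were called, with 1709 of 17757 genes. Brackets below give the calls over all genes. The count was 1 without the low-count filter (1312 of 33168) and 5 with DESeq2 (2465 of 18864). It was 0 with the muscle score as a covariate (3 of 17757) and 1 with only the 2 groups fitted (1064 of 16902). Without both RT replicate 3 and FAP41BBL replicate 3 it was 1 (1628 of 17973). For RT_FAP41BBL against control 3 members were called, with 1404 of 17757 genes. The count was 8 with DESeq2 (2289 of 17635) and 6 with the replicate block (1564 of 17757). It was 15 with only the 2 groups fitted (3223 of 16907) and 12 without both high libraries (2143 of 17973). For RT_FAP41BBL against RT 0 members were called, with 1022 of 17757 genes. The count was 2 without the filter (855 of 33168), 4 with DESeq2 (2025 of 17635) and 2 with limma-voom (1366 of 17757). It was 2 with the replicate block (1172 of 17757) and 1 with the covariate (3 of 17757). With only the 2 groups it was 1 (785 of 17090), and without both libraries 12 (2605 of 17973). Against FAP41BBL 0 members were called, with 168 of 17757 genes. The count was 1 with library totals (164 of 17757), 1 without the filter (241 of 33168) and 2 with DESeq2 (754 of 16418). It was 1 with limma-voom (236 of 17757) and 8 without both libraries (457 of 17973). For the interaction 0 members were called, with 27 of 17757 genes. The count was 1 with DESeq2 (629 of 17029) and 4 without both libraries (352 of 17973). The cause was not tested, except that the 2 libraries were left out for being high in these genes. FAP41BBL against control stayed at 0 throughout.

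With 1 library left out the counts ran from 1 to 3 for RT against control, from 1 to 2 for RT_FAP41BBL against control, from 0 to 4 against RT, from 0 to 1 against FAP41BBL, from 0 to 1 for the interaction and from 0 to 0 for FAP41BBL against control. For RT against control the count was 1 without control replicate 2 or RT replicate 3 (805 of 18160 and 1371 of 18106 genes called). For RT_FAP41BBL against control it was 1 without control replicate 1, control replicate 3 or RT_FAP41BBL replicate 2. The same fits called 790 of 18250, 703 of 18264 and 442 of 18201 genes. The 4 against RT and the 1 for the interaction came without RT replicate 3, the highest of its group in 32 members. Apart from the left-out libraries, Kdr and Apln in RT_FAP41BBL kept their calls under all 9 alternatives. Eng lost its call with the covariate (adjusted p = 0.117), as did Apln in RT (0.245). Angpt1 lost its call without the filter (0.0561), with only the 2 groups (0.0971), without both libraries (0.0625) and with the covariate (0.248). With the covariate 3 of 17757 genes passed in RT, so the calls lost there single out neither Apln nor Angpt1.

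Replicate numbers are shared by the groups, but the labels do not say that they pair samples. Over 18 pairs of same-numbered libraries the correlation of deviations from the group means ran from -0.344 to 0.432, and 6 of 12 libraries correlated best with their own number, so the block stands as an alternative only. Counts of Prox1 and Mmrn1 were as low as 2 and 1 in control replicate 3, whose total was not the lowest of its group, so their values there carry a large counting error.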
